A study of Saccharomyces cerevisiae with 40 samples.

Results

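Rate retention is the share of its maximum CO2 production rate (Rmax) that a yeast culture still held at R70, its rate in the last stretch of the fermentation. The ratio was computed as R70 divided by Rmax for each of 30 haploid segregants of a cross between S288C, the laboratory strain of the reference genome, and 59A, a haploid strain made from the wine yeast EC1118. The 10 segregants of highest ratio (high rate retention) were compared with the 10 of lowest ratio (low rate retention), so 20 of the 30 segregants entered the tests. The other 10 segregants and both parents, with 5 arrays each, are given as values only. Fermentations ran at 28 °C under airlocks in a synthetic grape must, MS300, in 1 l by the labels and in a slightly larger volume by the study's methods. All 40 RNA samples were taken at 50% of the fermentation, after 45 g of CO2 had been released, so expression was read between the times of Rmax and R70. No treatment differed between segregants, and only their genotypes did. The labels and the methods disagree on the mating type of S288C.

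Fermentation in a must of this kind is fastest while cells grow on the assimilable nitrogen, and most of the sugar is then consumed by cells that no longer divide. In this late phase ethanol accumulates, hexose uptake slows as transporters are degraded, and membranes, the proton gradient and the protein pool must be kept up with little new nitrogen. Yeast meets such conditions with a general stress programme under protein kinase A and the factors Msn2 and Msn4, while ribosome production falls with growth.

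The ratio ran from 0.423 in segregant 24a to 0.873 in 3a, around a median of 0.663. The high class held 3a, 20a, 31b, 28b, 14a, 17a, 19c, 16d, 20b and 5a, and the low class held 10b, 29c, 16a, 7a, 18b, 16b, 23b, 22c, 19b and 24a. These ratios chose the classes and are a description. The high class averaged 0.819 ± 0.046 (SD, n = 10) and the low class 0.510 ± 0.063 (SD, n = 10). At the limits, 5a had 0.737 against 0.735 in 14b, the first segregant left out above, and 10b had 0.585 against 0.593 in 6b, the first left out below. The upper limit therefore splits nearly equal ratios.

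Both parents retained little of their rate, with ratios of 0.497 in S288C and 0.507 in 59A (authors' means). Of the 30 segregants, 25 lay above both parents, 5 lay below both and 0 lay between them. The high and low classes differed mainly in R70. In the high class R70 averaged 1.52 ± 0.27 g CO2 per l and h and Rmax 1.85 ± 0.28, whereas in the low class R70 averaged 1.02 ± 0.20 and Rmax 2.01 ± 0.42 (SD, n = 10). In 8 of the 10 high segregants R70 exceeded the highest R70 of the low class. The middle segregants reached the highest Rmax, 2.51 ± 0.54, and also the highest R70, 1.68 ± 0.41 (SD, n = 10). Their fermentations were the shortest on average, at 75.4 ± 18.4 h (SD, n = 10). The classes therefore do not order the strains by maximum rate or by late rate. In 22c the table gives an R50, the rate at 50% of the fermentation, of 1.50 that exceeds its Rmax of 1.47.

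**Figure D1:**
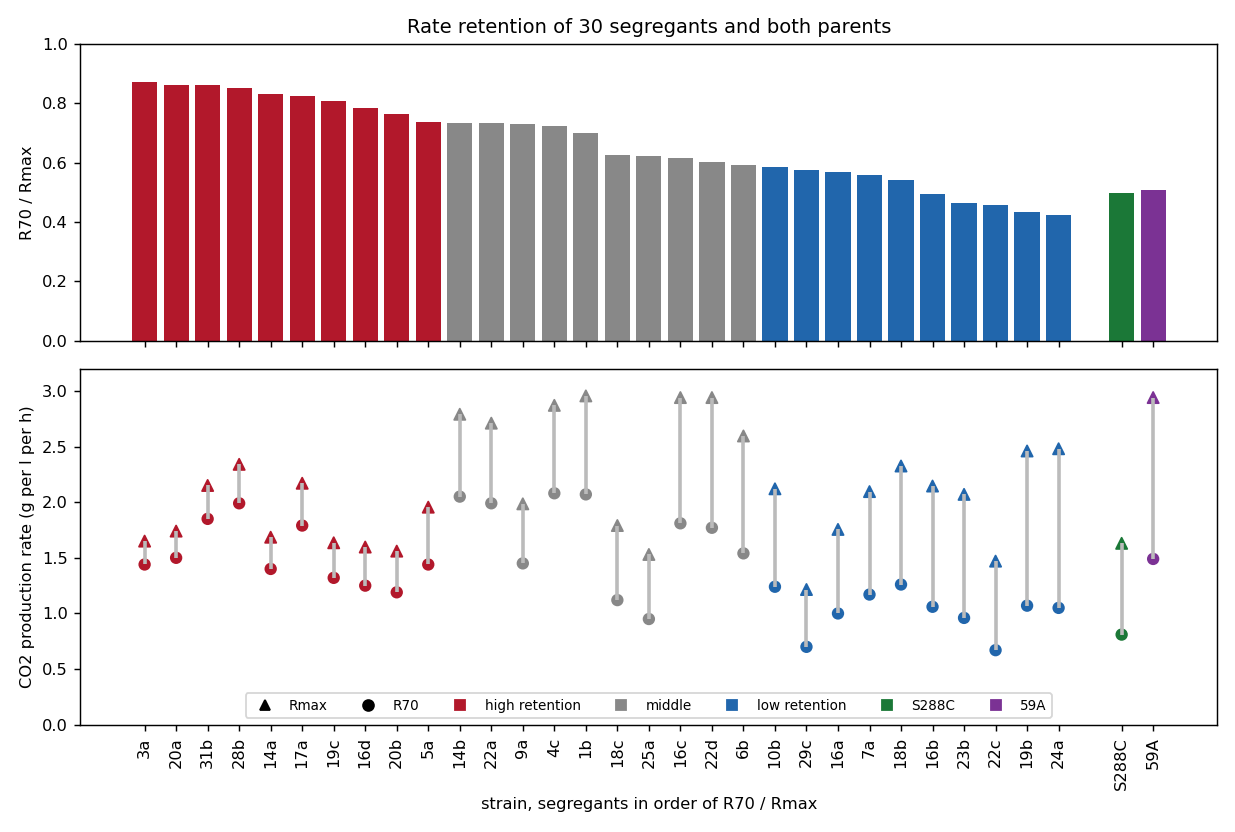
R70 divided by Rmax (top, bars) and the rates themselves in g CO2 per l and h (bottom, triangles for Rmax and circles for R70) for 30 segregants in order of the ratio and for both parents. The ratio falls from 0.873 in 3a to 0.423 in 24a, and both parents sit near 0.5.

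Pyruvate, glycerol and the cell population differed between the classes. Metabolites were measured by the authors at the end of the fermentation. Pyruvate, the last intermediate before the branch to ethanol, averaged 0.249 ± 0.062 g per l in the high class and 0.110 ± 0.022 in the low class (SD, n = 10). Its values ran from 0.158 to 0.368 g per l in the high class and from 0.0725 to 0.136 in the low class, so the 2 classes did not overlap. The difference of 0.139 g per l (SE 0.021) had a permutation p of 2e-05, the smallest that 100000 permutations can give, and an adjusted p of 0.00016 over the 8 traits that the rule did not use.

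Glycerol, which yeast forms to balance NADH and to protect itself from osmotic stress, averaged 6.19 ± 0.63 g per l in the high class and 5.29 ± 0.50 in the low class (SD, n = 10; permutation test, adjusted p = 0.0116). It ran from 5.32 to 7.01 g per l in the high class, with a median of 6.22, and from 4.48 to 5.89 in the low class, with a median of 5.34. In 6 of the 10 high segregants glycerol exceeded every low segregant. The cell population was smaller in the high class, at 120 ± 34 against 179 ± 61 cells per ml, counted in units of 10 to the power 6 (SD, n = 10; permutation test, adjusted p = 0.017). In 7 of the 10 high segregants it lay under the lowest value of the low class, 132 in the same unit. The calls for glycerol and cell population were lost with 12 segregants per class and with 1 segregant per strain number, the number that sister spores share.

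The other 5 traits did not pass. Fermentation duration, which comes from the same curve as the rule, was 87.4 ± 9.9 h in the high class and 104 ± 23 h in the low class (SD, n = 10; permutation test, adjusted p = 0.0939). Acetate was 1.05 ± 0.35 against 0.847 ± 0.206 g per l (adjusted p = 0.172, permutation test), and assimilated nitrogen was 291 ± 38 against 308 ± 35 mg per l (adjusted p = 0.365, permutation test). Succinate and R50, also from the curve, had adjusted p-values of 0.428 and 0.155 by the same permutation test. Pyruvate was 0.06 g per l in S288C and 0.1 in 59A, within or below the range of the low class.

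**Figure D2:**
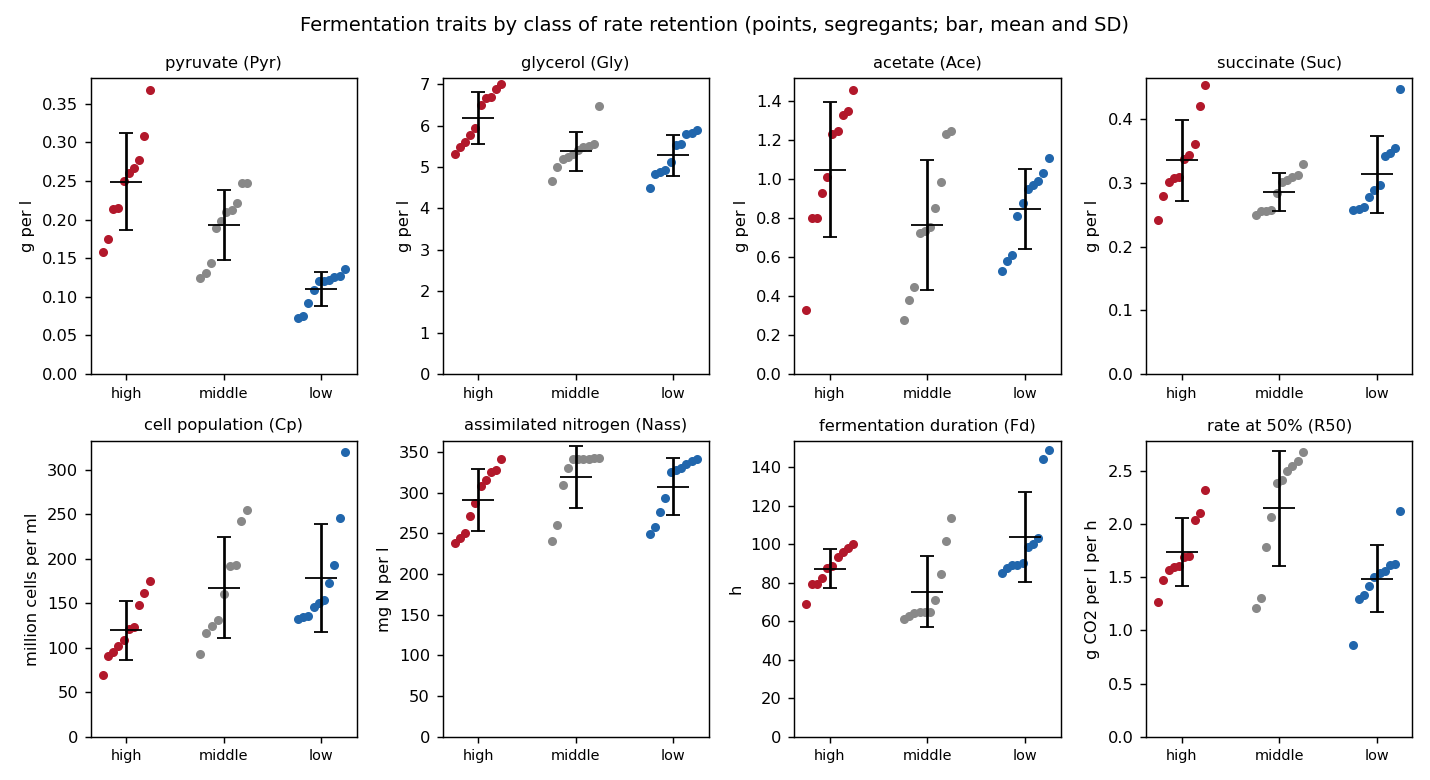
The 8 traits that did not define the ratio, in the high, middle and low classes, with a point per segregant and the mean and SD as a bar. Pyruvate is the trait whose high class (0.158 to 0.368 g per l) lies wholly above the low class (0.0725 to 0.136 g per l).

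Expression is given as the log2 ratio of a sample to a pool of RNA from the 30 segregants, so a level of 0 is that of the pool and a difference of 1 is a factor of 2 between classes. A level per culture cannot tell less RNA per cell from fewer cells that express a gene. The direction, sample over pool, follows the study's methods and not the table. The values of every array end at -2.32 and 2.09. The authors normalized between slides by quantiles, which gives the arrays a common set of values. A level at these ends therefore marks the lowest or highest rank of its array, and its size is fixed by that set. Pairs of segregants correlated between -0.443 and 0.864 over the oligonucleotides, and 13 pairs lay under -0.3. The libraries of 20a, 19c and 16d, all of the high class, stood apart, with median correlations to the other segregants of -0.165, -0.118 and 0.076, and results are also given without them.

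Of 4388 oligonucleotides tested, 543 (12.4%) were higher and 445 (10.1%) were lower in high rate retention, 988 in all (22.5%), by limma at an adjusted p under 0.05 over the whole table. These shares are the background for every count of list members given below. Without 20a, 19c and 16d 615 were called, and 535 of them were among the 988. Since the cell population differed between the classes, it was also fitted as a covariate. With it 213 were called (94 higher and 119 lower), 212 of them among the 988, and the part of the cell population in these differences was not tested beyond that fit. With Rmax as a covariate 811 were called, of which 770 were among the 988. With R70 as a covariate, the rate in which the classes mainly differed, 508 were called. The called differences had a median size of 0.45 on the log2 scale, and 24 were over 1, of which 13 were lower and 11 higher in the high class.

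The largest differences were of genes lower in the high class, and genes of stress and of the cell surface stood among them. *HSP30*, which encodes a plasma membrane protein induced by heat and ethanol that restrains the proton pump Pma1, had levels from -2.32 to 0.43 in the high class, with a median of -1.29. In the low class it ran from 0.02 to 2.09, with a median of 1.22. The groups overlapped only through 3a at 0.18 and 16d at 0.43, and the other 8 high segregants lay under every low segregant. The difference was -2.22 (SE 0.34, adjusted p = 0.00066 by limma), a 4.67-fold difference and the largest of the table in either direction. It was -2.28 without the 3 libraries that stood apart (adjusted p = 0.0039, limma) and -2.13 with cell population as a covariate (adjusted p = 0.018, limma). The study had listed *HSP30*, and also *SPC1* and *GCN3*, as most negatively correlated with R70, part of the ratio, on these same arrays.

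*HSP12*, a small stress protein that binds membranes, averaged -0.65 ± 0.97 in the high class and 0.88 ± 0.70 in the low class (SD, n = 10; adjusted p = 0.0049 by limma), and it lost the call with cell population as a covariate (adjusted p = 0.052, limma). Its highest level in the high class, 1.33, was in 16d, one of the libraries that stood apart. *SPS100*, known for the maturation of the spore wall, differed by -1.12 (SE 0.22, adjusted p = 0.0026, limma). *DDR2*, a gene induced by many stresses, ran from -1.15 to 0.34 in the high class and from -0.02 to 0.82 in the low class. Here 9 of the 10 high segregants lay under the low class, and the exception was 16d (difference -1.01, SE 0.14, adjusted p = 0.00048, limma). *CTT1*, the cytosolic catalase, differed by -0.997 (SE 0.22, adjusted p = 0.0049, limma).

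In the list of the general stress response 12 of 45 measured members were lower (26.7%, against 10.1% over all oligonucleotides) and 4 were higher, with a median difference of -0.15 against 0.02 over all. The 4 that were higher were *HSP42*, *CTA1*, *OM45* and *ECM4*, with differences of 0.28, 0.27, 0.53 and 0.44 on the log2 scale, and all but *HSP42* lost the call when one or another single segregant was left out. Without 20a, 19c and 16d 10 members were lower and 0 higher, and with cell population as a covariate 6 were lower and 0 higher. The members of smallest p, *DDR2*, *HSP30* and *SPS100*, are among transcripts that the study linked to a locus on chromosome II on these same arrays. The stress count is therefore not separate from the count for that locus given below. *NCE102* and *PMP3*, which encode proteins of plasma membrane organisation and of its potential, differed by -0.78 and -0.52. *GPX1*, a glutathione peroxidase, differed by -0.59 and *SOD1*, the cytosolic superoxide dismutase, by -0.44 (adjusted p of 0.0049 and 0.0118 by limma). *SOD1* lost the call with cell population as a covariate (adjusted p = 0.131, limma) and without 20a, 19c and 16d (adjusted p = 0.076, limma). *YAP1*, the activator of the oxidative stress genes, was higher by 0.36 (adjusted p = 0.00585, limma).

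Protein folding genes were called in both directions. *SSA1*, a cytosolic Hsp70, averaged 0.57 ± 0.25 in the high class and -0.07 ± 0.36 in the low class, and *SSB2*, the Hsp70 bound to ribosomes, 0.33 ± 0.26 against -0.18 ± 0.25 (SD, n = 10). The differences of 0.65 and 0.51 had adjusted p-values of 0.0036 and 0.0049 by limma. *CCT7*, a subunit of the cytosolic chaperonin that folds actin and tubulin, was higher by 0.60 (adjusted p = 0.0043, limma), and *GIM4*, of the prefoldin complex that feeds it, by 0.43. *CCT3* of the same chaperonin was lower by 0.36. Of the heat shock chaperones 5 of 27 were higher (18.5%, against 12.4% over all) and 3 lower (11.1%, against 10.1%). Of the chaperonin and prefoldin genes 4 of 14 were higher (28.6%) and 2 lower (14.3%). The list medians were 0.04 and 0.02. With cell population as a covariate 3 and 1 were higher and 0 lower in either list. *MDJ1*, a mitochondrial chaperone, fell by 0.32 (adjusted p = 0.0091, limma).

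Single genes of the cell wall and of lipid synthesis also stood among the largest differences. *TIP1*, a cell wall mannoprotein, ran from -2.32 to 0.12 in the high class, with a median of -1.38, and from -0.03 to 2.09 in the low class, with a median of 0.56. The difference was -1.75 (SE 0.30, adjusted p = 0.0014, limma), and 7 of the 10 high segregants lay under the low class. *OLE1*, the fatty acid desaturase, differed by -1.06 (SE 0.32, adjusted p = 0.022, limma) and lost the call without 20a, 19c and 16d (adjusted p = 0.051, limma). *SVS1*, a serine- and threonine-rich cell wall protein, differed by -1.05 and lost the call in the same way (adjusted p = 0.052, limma). *SPC1*, a subunit of the signal peptidase, differed by -1.05 (adjusted p = 0.0026, limma). In ergosterol synthesis 3 of 24 were higher (12.5%, at the 12.4% over all), namely *ERG27*, *ERG6* and *ERG10* by 0.63, 0.27 and 0.56, and 0 were lower.

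*CAB2*, an enzyme of coenzyme A synthesis, had one of the most separated levels. The low class lay between 0.22 and 0.76 and the high class between -1.31 and 0.33, and 9 of 10 high segregants were under the low class, 31b being the exception. The difference was -1.13 (SE 0.16, adjusted p = 0.00048, limma). *YLR235C* behaved alike, with levels from -0.87 to 0.39 against 0.29 to 1.56 (difference -1.18, SE 0.17, adjusted p = 0.00048, limma), again with 31b as the exception. *YPR077C* differed by -1.02 (adjusted p = 0.0036, limma). The last 2 names are those of the array and were not matched to a gene in the reference table.

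**Figure D3:**
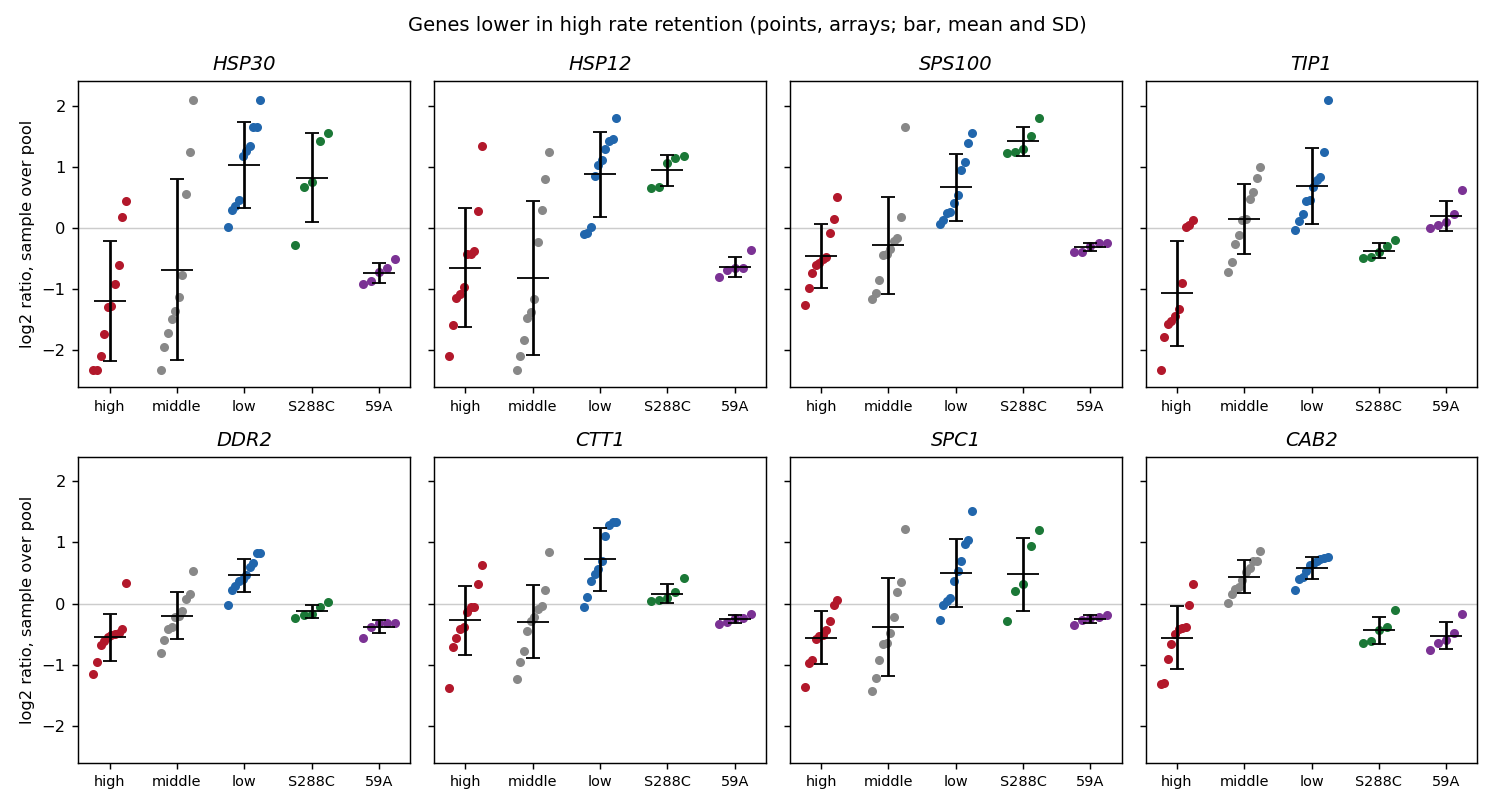
Log2 ratio of sample over pool for 8 genes lower in high rate retention, in the high, middle and low classes and in both parents, with a point per array and the mean and SD as a bar. For *HSP30*, *HSP12* and *SPS100* S288C sits with the low class and 59A with the high class, and for *CAB2* both parents sit with the high class.

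The parents bear on these levels, since both had a low ratio. *HSP30* stood at -0.28, 1.55, 0.67, 1.42 and 0.75 in the 5 arrays of S288C and at -0.91, -0.71, -0.86, -0.66 and -0.51 in those of 59A. S288C was thus mostly in the range of the low class and 59A in that of the high class, although neither parent retained its rate. *SPS100* averaged 1.41 ± 0.24 in S288C and -0.31 ± 0.07 in 59A (SD, n = 5). *CAB2* averaged -0.43 ± 0.22 and -0.53 ± 0.22 (SD, n = 5), so both parents stood at the level of the high class.

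Among the middle segregants *HSP30* was split, at 1.24 in 18c, 2.09 in 25a and 0.56 in 6b but between -2.32 and -0.77 in the other 7. For *HSP12* the middle class averaged -0.81 ± 1.26 (SD, n = 10), close to the high class and with a wider spread. Over the 988 called oligonucleotides the middle mean lay between the 2 class means for 924, nearer the low class for 821 and nearer the high class for 167. Both parents lay nearer the high class for 689 and both nearer the low class for 97. These counts are a description, and whether parents and segregants were hybridised together is not given in the sources used here.

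Genes with the largest positive differences had raised levels in a part of the high class. *DIA1*, linked to invasive growth, ran from -1.20 to 1.42 in the high class, with a median of 0.27, and from -2.32 to -0.27 in the low class, with a median of -1.22. Levels over 0.5 were in 20a, 28b, 14a, 19c and 16d, while 31b and 17a stood at -1.03 and -1.20, in the range of the low class. The difference was 1.58 (SE 0.33, adjusted p = 0.0036, limma). *RRP40*, a core subunit of the RNA exosome, differed by 1.34 (SE 0.29, adjusted p = 0.0044, limma), and again 8 of 10 high segregants lay above the low class with 31b and 17a as exceptions. *SOG2*, of the RAM kinase network of cell separation, had the highest value of the array, 2.09, in 20a and 19c (difference 1.42, SE 0.32, adjusted p = 0.0049, limma).

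*HAM1*, which hydrolyses abnormal purine nucleotides, *YMR262W*, *MTF1*, a factor of the mitochondrial RNA polymerase, and *JID1* differed by 1.25, 1.25, 1.26 and 1.28 (adjusted p of 0.01, 0.0036, 0.032 and 0.03 by limma), and the calls of *MTF1* and *JID1* were lost on leaving out single segregants. *TLG1* and *EMP24*, of vesicle transport, and *SPO13*, a meiotic regulator, differed by 1.08, 1.07 and 1.02 (adjusted p of 0.02, 0.02 and 0.0114 by limma). Of the 12 largest positive differences 6 kept the call without 20a, 19c and 16d, namely *DIA1*, *SOG2*, *RRP40*, *MET17*, *YMR262W* and *BUD22*, and 3 kept it with cell population as a covariate. Of the 12 largest negative ones 9 and 8 did. *DIA1*, *RRP40*, *JID1*, *MTF1*, *YMR262W* and *HAM1* belong to the list of transcripts that the study linked to a locus on chromosome XIV. *HSP30*, *HSP12*, *SPS100*, *SPC1* and *DDR2* belong to its list for chromosome II. *GCN3*, *RPL42A*, *NTH1*, *CYR1*, *GPX1*, *PMP3*, *FLC2* and *TDP1*, named in other paragraphs, belong to it too, so their differences are not separate evidence.

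Of the chromosome II list 30 of 34 measured members were lower (88.2%, against 10.1% over all) and 4 higher (11.8%, against 12.4%) in the high class. Of the chromosome XIV list 21 of 42 were higher (50.0%) and 8 lower (19.0%). The medians were -0.44 and 0.40. The study chose both lists on these same arrays, and transcripts linked to one locus move together, so the counts are not independent evidence. *OSM1*, a fumarate reductase, came after *DDR2* in order of p in the first list, with -0.70 (adjusted p = 0.00057, limma). *LSM12*, *CDC15* and *DDC1*, by -0.78, -0.63 and 0.88, had the smallest p-values in the second. Of the 34, 25 were lower without 20a, 19c and 16d, and of the 42, 11 were higher and 5 lower. With cell population as a covariate 17 of the 34 were lower, and 3 of the 42 were higher and 2 lower.

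Ribosomal protein genes were shifted upwards in the high class by small amounts. Of 132 measured oligonucleotides of cytosolic ribosomal proteins 35 were higher (26.5%, against 12.4% over all) and 5 lower, 108 had a positive difference, and the median was 0.23. *RPL13B* rose most, from a median of -0.34 in the low class to 0.66 in the high class (difference 0.80, SE 0.15, adjusted p = 0.0018, limma), and *RPL34B* by 0.41. *RPL42A* went against the list and was lower by 0.43, with 9 of 10 high segregants under the low class (adjusted p = 0.0017, limma). Without 20a, 19c and 16d 33 were higher and 2 lower, and with cell population as a covariate 12 were higher and 1 lower. Ribosomal protein genes come in near-identical pairs that a spotted oligonucleotide may not tell apart.

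In ribosome biogenesis 17 of 76 were higher (22.4%, against 12.4% over all) and 7 lower (9.21%, against 10.1%), with a median of 0.10. The counts were 10 higher and 4 lower without 20a, 19c and 16d, with a median of 0.03, and with cell population as a covariate 2 were higher and 2 lower. *BUD22*, needed for the small subunit, differed by 0.96 (SE 0.17, adjusted p = 0.0018, limma) and *DRS1*, a helicase of the large subunit, by 0.73 (adjusted p = 0.0018, limma). *NOP13* was lower by 0.86 (adjusted p = 0.002, limma). In translation 8 of 32 were higher (25.0%, against 12.4% over all) and 2 lower (6.25%, against 10.1%). The counts were 2 and 1 with cell population as a covariate. *TIF2*, the initiation factor eIF4A, and *ANB1*, the eIF5A of anaerobic cells, were both higher by 0.56. *GCN1*, which passes starvation signals to the kinase Gcn2, was higher by 0.53. *GCN3*, a subunit of the initiation factor eIF2B, was lower by 0.49 (adjusted p = 0.0102, limma). Of the mitochondrial ribosomal proteins 4 of 51 were higher, among them *MRPL38* by 0.65, and 4 lower.

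**Figure D4:**
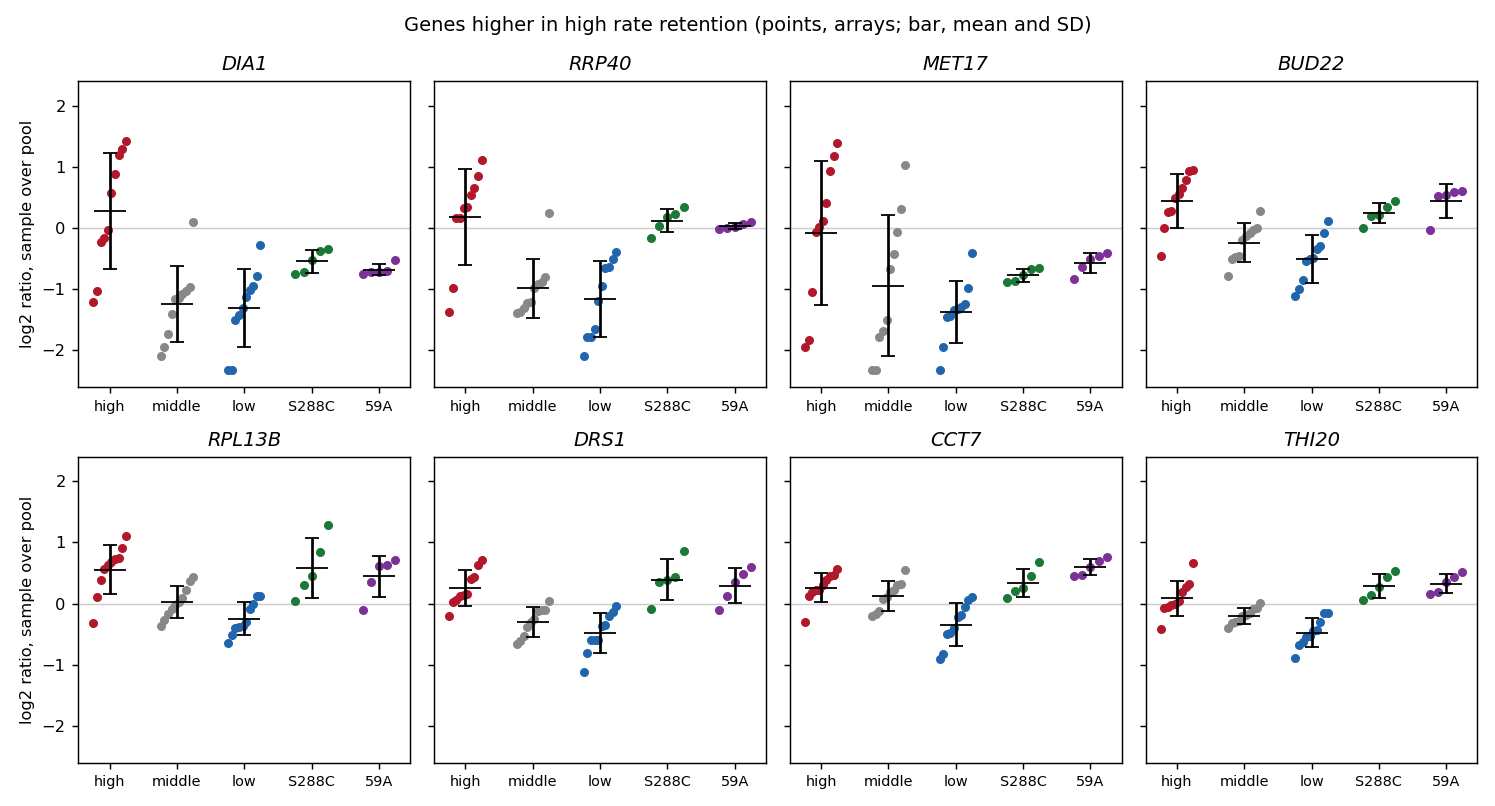
Log2 ratio of sample over pool for 8 genes higher in high rate retention, in the high, middle and low classes and in both parents, with a point per array and the mean and SD as a bar. *DIA1*, *RRP40* and *MET17* spread widely within the high class, and *RPL13B*, *CCT7* and *THI20* less.

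Hexose transport genes were lower in the high class. Of 20 measured transporters and sensors 10 were lower (50.0%, against 10.1% over all) and 0 higher, with a median of -0.35. *HXT6*, a high-affinity transporter, ran from -1.28 to 0.79 in the high class, with a median of -0.29, and from 0.31 to 1.46 in the low class, with a median of 0.61. In 8 of the 10 high segregants it lay under the low class (difference -0.93, SE 0.22, adjusted p = 0.0064, limma). *HXT7*, nearly identical to it in sequence, differed by -0.89, and the array may not separate the pair. *HXT9* and *HXT10* differed by -0.59 and -0.44 (adjusted p of 0.0049 and 0.0094 by limma). *HXT3*, a low-affinity transporter, had levels of 0.05 and 0.13 in the high and low classes and did not pass (difference -0.08, adjusted p = 0.65, limma). The lower members numbered 3 without 20a, 19c and 16d, at a median of -0.20, and with cell population as a covariate 0 were, at a median of -0.32.

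In glycolysis and ethanol formation 7 of 30 were higher (23.3%, against 12.4% over all) and 0 lower (against 10.1%), with a median of 0.10. *HXK2*, the main hexokinase, averaged 0.16 ± 0.21 in the high class and -0.22 ± 0.19 in the low class (SD, n = 10; adjusted p = 0.0088 by limma). *PDC5*, a pyruvate decarboxylase, was higher by 0.44 (adjusted p = 0.0145, limma) and *ADH7*, a member of the alcohol dehydrogenase family, by 0.52 (adjusted p = 0.0087, limma). *TDH2*, *TDH3*, *ENO1* and *PFK1* made up the rest, by 0.56, 0.45, 0.40 and 0.32. Without 20a, 19c and 16d 11 members were higher, and with cell population as a covariate 0 were.

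Around pyruvate, the metabolite that separated the classes, 19 genes of the acetate and pyruvate branch were measured. Of these 4 were higher (21.1%, against 12.4% over all) and 1 lower (5.26%, against 10.1%). Both without 20a, 19c and 16d and with cell population as a covariate 1 was higher and 0 lower. *PYC1* and *PYC2*, the pyruvate carboxylases, were higher by 0.37 and 0.38 (adjusted p of 0.031 and 0.02 by limma), and *PTC5*, a phosphatase that activates pyruvate dehydrogenase, by 0.40 (adjusted p = 0.011, limma). The *PYC1* call was lost when 10b, 19c, 20a, 24a or 7a was left out, with adjusted p between 0.051 and 0.061 by limma, and without 20a, 19c and 16d together (adjusted p = 0.134, limma). Glycerol differed between the classes, but of 10 measured genes of glycerol metabolism 1 was called, *DAK1*, a dihydroxyacetone kinase (difference 0.36, adjusted p = 0.033, limma). *GPD1*, the main glycerol phosphate dehydrogenase, was at 0.06 and -0.01 in the high and low classes (adjusted p = 0.57, limma).

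Reserve carbohydrate genes had 2 of 20 higher and 2 lower, close to the share over all. *NTH1*, the neutral trehalase, was lower by 0.44, with 9 of 10 high segregants under the low class (adjusted p = 0.0043, limma), and *UGP1*, which makes UDP-glucose, by 0.47 (adjusted p = 0.0144, limma). *TPS1*, the trehalose synthase subunit, did not pass, at -0.08 and -0.21 (adjusted p = 0.35, limma). In the citric acid cycle 2 of 23 were lower, *IDP1* and *IDH1*, both by 0.63. None of 9 pentose phosphate genes and of 27 *PAU*, *DAN* and *TIR* genes was called by limma in either direction.

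Transcripts of the mitochondrial genome were lower as a group. All 16 measured oligonucleotides had a negative difference, with a median of -0.64, and 10 of them were called (62.5%, against 10.1% over all). *COX1*, a core subunit of cytochrome oxidase, ran from -1.12 to 0.62 in the high class and from 0.13 to 1.13 in the low class (difference -0.85, SE 0.23, adjusted p = 0.012, limma). *OLI1*, the proteolipid of the ATP synthase, differed by -0.99 (SE 0.27, adjusted p = 0.0135, limma) and *ATP6* by -0.82. The high class was split, since *COX1* stood at 0.38 in 3a, 0.16 in 31b, 0.45 in 17a, 0.62 in 16d and 0.37 in 20b but at -0.87 or lower in the other 5. Without 20a, 19c and 16d 3 of the 16 were called lower, and with cell population as a covariate 0 were, at a median of -0.58. Nuclear genes of the respiratory chain had 3 of 48 higher and 3 lower and a median of 0.00, below the share over all in both directions.

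Of 27 genes under nitrogen catabolite repression, which are held down while good nitrogen sources last, 8 were lower (29.6%, against 10.1% over all) and 0 higher, although the median was -0.06. With cell population as a covariate 1 was lower, and *GZF3* and *DAL5* lost the call (adjusted p of 0.061 and 0.113 by limma). *GZF3*, a GATA repressor of the system, differed by -1.30 (SE 0.35, adjusted p = 0.0122, limma), *DAL4* and *DAL5*, permeases of allantoin and allantoate, by -0.75 and -0.58, and *GAP1*, the general amino acid permease, by -0.45. *GZF3* lost the call without 20a, 19c and 16d (adjusted p = 0.064, limma), when 3 members were lower.

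In sulfur and methionine metabolism 8 of 28 were higher (28.6%, against 12.4% over all) and 5 lower (17.9%, against 10.1%), with a median of 0.09. The counts were 3 and 2 with cell population as a covariate. *MET17*, which fixes sulfide into homocysteine, ran from -1.95 to 1.39 in the high class and from -2.32 to -0.41 in the low class (difference 1.29, SE 0.37, adjusted p = 0.0168, limma), and 16d, 17a and 5a stood in the range of the low class at -1.83, -1.95 and -1.04. *CYS3* and *STR3*, of the exchange between homocysteine and cysteine, were higher by 0.46 and 0.43 (adjusted p of 0.0032 and 0.0045 by limma). *SUL1*, a sulfate permease, was lower by 0.51 (adjusted p = 0.0026, limma). *LEU9*, an isopropylmalate synthase, led amino acid synthesis with -0.69. In that list 9 of 51 were higher (17.6%, against 12.4% over all) and 5 lower (9.80%, against 10.1%), or 2 and 2 with cell population as a covariate.

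Thiamine, the precursor of the cofactor of pyruvate decarboxylase, had 5 of 18 genes higher (27.8%, against 12.4% over all) and 1 lower (5.56%, against 10.1%). *THI20* and *THI21*, of hydroxymethylpyrimidine kinase activity, were both higher by 0.56 (adjusted p of 0.0036 and 0.0102 by limma), with 9 of 10 high segregants above the low class for *THI20*. *THI4*, of the thiazole branch, and *THI3*, a regulator, were higher by 0.55 and 0.51 (adjusted p of 0.0106 and 0.01 by limma). The study had ranked both among its highest correlations with R70 on these same arrays. With cell population as a covariate 3 members were higher and 0 lower. *SHM2*, the cytosolic serine hydroxymethyltransferase, was the called gene among 14 of folate and one-carbon metabolism, higher by 0.51 (adjusted p = 0.0031, limma).

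*ABZ1*, an enzyme of p-aminobenzoate synthesis that the study examined for its effect on Rmax, had levels of 0.13 ± 0.23 in the high class and -0.09 ± 0.25 in the low class (SD, n = 10). The difference of 0.22 (SE 0.11) did not pass (adjusted p = 0.15, limma). *YLR444C* did not pass either, with 0.18 ± 0.19 against 0.03 ± 0.09 (SD, n = 10; adjusted p = 0.16 by limma).

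Protein kinase A genes had 1 of 18 higher (5.56%, against 12.4% over all) and 2 lower (11.1%, against 10.1%). *TPK2*, a catalytic subunit, was higher by 0.37 and *IRA2*, which switches Ras off, lower by 0.42 (adjusted p of 0.0055 by limma for both). *CYR1*, the adenylate cyclase, was lower by 0.43 (adjusted p = 0.0139, limma). In all 1 of 18 genes was higher and 2 were lower. Among autophagy genes 5 of 26 were higher and 3 lower, or 0 and 3 with cell population as a covariate. *ATG5* and *ATG21* were lower by 0.98 and 0.70, each with 9 of 10 high segregants under the low class (adjusted p of 0.0014 and 0.00097 by limma), and *ATG17* was higher by 0.68 (adjusted p = 0.007, limma).

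Proteasome genes had 5 of 30 higher, *RPT2* and *RPT3* of the regulatory particle among them by 0.31 and 0.42, and 1 lower, *RPN7* by 0.56. The 16.7% that were higher compare with 12.4% over all. The number higher was 1 without 20a, 19c and 16d, and with cell population as a covariate 0 were, *RPT2* and *RPT3* both having an adjusted p of 0.084 by limma. Copper and iron uptake genes *FRE1*, a metal reductase, and *CTR2*, the vacuolar copper transporter, were higher by 0.58 and 0.53 (adjusted p of 0.0045 and 0.0037 by limma), and of the 9 genes of metallothioneins and copper 3 were higher and 2 lower.

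Of 35 cell wall genes 3 were higher and 3 lower, 8.57% each way and below the 12.4% and 10.1% over all. *GFA1* of chitin synthesis was higher by 0.37 and the mannoprotein *CWP1* lower by 0.56. *ABP1*, an actin-binding protein of endocytic patches, was higher by 0.56 (adjusted p = 0.011, limma). In its list 3 of 24 were higher (12.5%, at the 12.4% over all) and 1 lower (4.17%, against 10.1%). In phospholipid metabolism 3 of 23 were higher, among them *INO2*, an activator of the inositol genes, by 0.51 (adjusted p = 0.0084, limma), and 2 lower. Of the signal peptidase and translocon genes 1 of 16 was higher, *SRP14* of the signal recognition particle by 0.43, and 3 were lower, with *SRP68* of the same particle by 0.48. Of the catalase, peroxidase and thioredoxin genes 3 of 23 were higher and 4 lower, and of DNA replication and histone genes 4 of 37 and 4, with *HTB2*, a histone H2B, lower by 0.54.

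Of 13 mating-type transcripts 4 were higher (30.8%, against 12.4% over all), 1 was lower and 8 did not pass. *HMLALPHA1* ran from -0.75 to 0.14 in the high class and from -1.42 to -0.49 in the low class (difference 0.57, SE 0.12, adjusted p = 0.0033, limma). *MATALPHA1* and *MATALPHA2* differed by 0.56 and 0.36 (adjusted p of 0.0143 and 0.0164 by limma). The alpha genes at *HML* and *MAT* carry the same sequence, so these calls are not separate measurements, and the mating types of the segregants were not used here. Without 20a, 19c and 16d 1 of the 13 was called higher, and likewise 1 with cell population as a covariate. None of 7 Ty elements was called by limma, at a median of -0.31, and 1 of 14 subtelomeric helicases was higher.

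**Figure D5:**
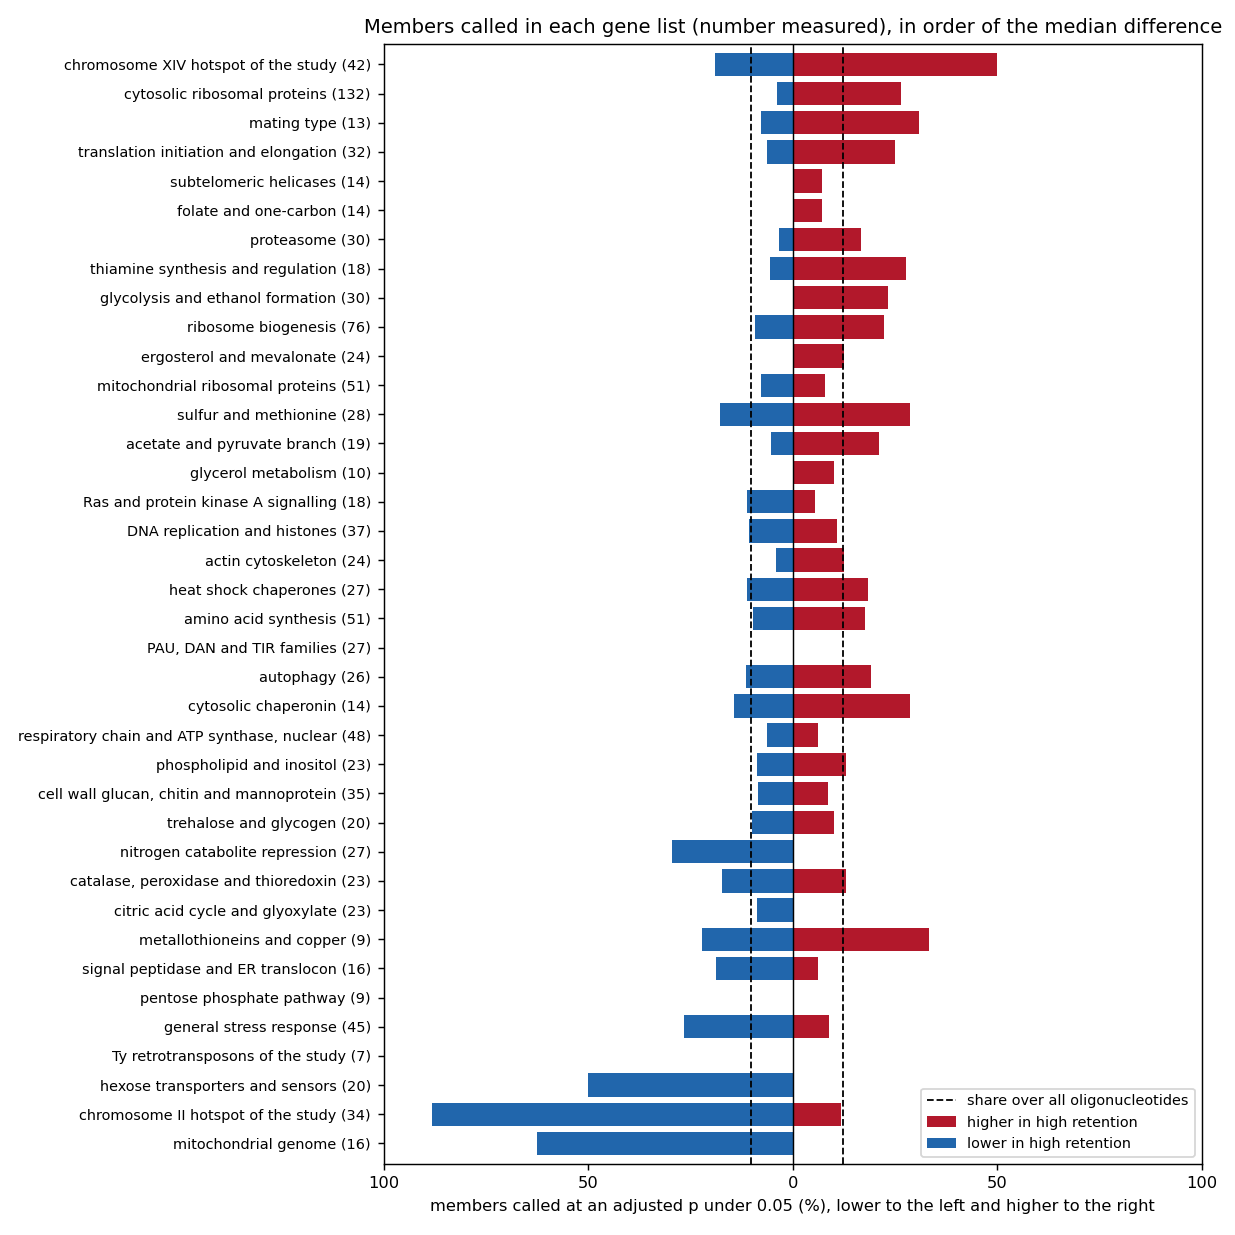
Share of the measured members of each of 38 gene lists called higher (to the right) and lower (to the left) in high rate retention at an adjusted p under 0.05, with the number measured in brackets and dashed lines at the shares over all oligonucleotides, 12.4% and 10.1%. The chromosome II list of the study (30 of 34 lower), the mitochondrial genome (10 of 16) and hexose transport (10 of 20) reach farthest to the left.

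For 10 of the 4388 oligonucleotides (0.228%) the 2 classes did not overlap at all, 5 in each direction. These genes were singled out after their values were seen. Lower in every high segregant were *FLC2*, *TDP1*, *SEC24*, *IRC18* and *MLO1*, and higher were *PMT7*, *ALR2*, *SRL2*, *CNA1* and *DOM34*. *FLC2* and *TDP1* belong to the study's chromosome II list, which was chosen on these same arrays. *SEC24*, a cargo receptor of COPII vesicles, lay between -0.82 and 0.02 in the high class and between 0.04 and 0.47 in the low class (difference -0.68, SE 0.10, adjusted p = 0.00066, limma). *CNA1*, a catalytic subunit of calcineurin, lay between 0.02 and 0.48 against -0.64 to 0.01 (difference 0.52, SE 0.09, adjusted p = 0.0017, limma). *DOM34*, which frees stalled ribosomes, lay between 0.00 and 0.47 against -0.66 to -0.01 (difference 0.56, adjusted p = 0.0014, limma). The gaps between the classes were small beside the ranges within them.

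Segregants 16a, 16b, 16c and 16d share a strain number and fell into all 3 classes. *HSP30* stood at 0.43 in 16d of the high class, at -2.32 in 16c of the middle and at 1.33 and 1.18 in 16a and 16b of the low class. *TIP1* stood at -1.43, 0.58, 0.44 and 0.46 in the same order, and *CAB2* at -0.40, 0.17, 0.54 and 0.73. In this set 16d differed from its low-retention sisters in *TIP1* and *CAB2* in the direction of the class means, and less in *HSP30*. These genes were picked from the largest class differences, which the same segregants helped to form. Other genes of that kind went the opposite way. *HSP12* stood at 1.33 in 16d against 0.85 in 16a and 1.10 in 16b, and *MET17* at -1.83 against -0.99 and -1.29. The set therefore does not follow the class pattern as a whole.

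By chromosome, the nuclear genes called ranged from 17.0% of those on chromosome V to 28.1% of those on chromosome XIV, around the 22.5% over all. Of the 14 oligonucleotides annotated to the mitochondrial genome in the RefSeq table, 8 were lower and 0 higher (57.1%).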

How the data were processed

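The authors compared RNA of each strain, labelled with Cy3, with a Cy5-labelled pool of the 30 segregants on spotted oligonucleotide arrays, hybridised each sample in duplicate, normalized by print-tip loess and quantiles with R 2.9.2 and limma, and deposited log2 ratios. The table holds 4388 oligonucleotides on 40 arrays, 1 per segregant, with 53 missing values. The table states neither scale, centring nor direction. Array medians lie between -0.026 and 0.028, and sample over pool was taken from the methods. *ASP3-1*, of a gene cluster of S288C, was checked at 0.54 in S288C and -0.60 in 59A. The authors' traits, deposited in other units (g CO2 per l and h, g per l, cells per ml in units of 10 to the power 6, mg N per l, h), are means of duplicate fermentations for segregants, with nitrogen from a single one, and those of the parents were read from the labels. The unit of nitrogen was read from its size, because a figure axis of the paper gives another.

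Segregants were ranked by R70 divided by Rmax, ties in file order. For expression, a linear model per oligonucleotide with moderated variance (limma, version 3.58.1, under R version 4.3.3) compared the classes with no covariate, two-sided, with Benjamini-Hochberg adjustment over 4388 oligonucleotides. The procedure was tested on simulated data, drawn independently for each gene and array. Pairs of segregants were correlated in the real data, so that test does not give the error rate of these calls. Traits were tested with two-sided permutation tests of the difference of means in scipy 1.17.1 (Python 3.11.15), 100000 permutations, exact where a class had under 10 segregants, with adjustment over 8 traits. SE is the standard error of the difference. Gene lists are described by counts and medians with no test. p-values measure the spread between segregants, some of which are sister spores, and the number of arrays limits the precision. The ratio, the members and the 38 lists were chosen with earlier results of these data known. Genes named are the 12 largest differences each way among the called, the 3 members of smallest p in a list, and *ABZ1*. *THI3*, *YLR444C* and *THI4* were added as the genes highest in the study's correlation with R70, and *SPC1*, *HSP30* and *GCN3* as the lowest. That correlation came from these same arrays and R70 is part of the ratio, so their differences are not independent evidence. Chosen after their values were seen were the genes whose classes do not overlap, and others set beside a list. Names of 4104 oligonucleotides were matched to the RefSeq table of assembly R64 and 284 keep the array's name. Array builds are not given in the sources used here, so no coordinates are printed, and promoter motifs were not analysed here. Alternatives changed the classes, covariates, test, centring and threshold. Leaving out the 3 libraries that stood apart was chosen after seeing the data.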

Additional observations from a re-analysis of the deposited data

Results flagged for a closer look

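Within a class of 10, single segregants lay far from the rest by Dixon's test at the 95% level, which chance passes in about 1 of 20 groups. The test was run for 127 named genes and 10 traits in both classes, so a part of the segregants listed here would arise by chance. In the high class 31b stood apart at -0.66 for *GCN1* (nearest segregant -0.21), 0.55 for *ATG21* (nearest 0.07) and -0.56 for *ATG17* (nearest 0.01), each time in the direction of the low class. Segregant 16d stood apart at 0.34 for *DDR2* (nearest -0.41) and -0.30 for *CCT7* (nearest 0.13), also towards the low class, and at -0.32 for *ENO1* (nearest 0.31). Segregant 28b was at 0.62 for *HXK2* and -0.96 for *SRP68*, and 20a at -0.45 for *TDP1*.

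In the low class 24a, the segregant of lowest ratio, stood apart at -1.60 for *SOG2*, 1.46 for *HXT6*, -0.67 for *HXK2*, -1.05 for *ANB1* and 1.03 for *MLO1*, each time away from the high class. Segregant 18b was at -0.40 for *GZF3*, where the other 9 lay at 0.54 or higher, at 0.74 for *SOD1* and at -0.15 for *ABP1*. Segregant 19b was at -0.81 for *DAK1* and -0.0305 for *OSM1*, and 10b at -0.74 for *SRL2* and -1.14 for *MATALPHA2*. Segregant 23b was at -0.57 for *TDH3* and at 0.447 g per l for succinate.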

How the results depend on the processing

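Main counts were 543 genes higher and 445 lower. Higher and lower counts were 283 and 277 with 8 segregants per class, 299 and 290 with 1 segregant per strain number, 289 and 219 with R70 as a covariate, 94 and 119 with cell population as a covariate, 333 and 293 for R50 divided by Rmax, 175 and 121 by Spearman's rho over 30 segregants with a size over 0.6, 177 and 184 at an adjusted p under 0.01, and 163 and 213 with a difference over 0.5 as well. With 15 per class 348 were higher, without 20a, 19c and 16d 306 were higher and 309 lower, and for R70 divided by R50 278 were lower. Leaving out each of the 20 segregants gave 376 to 664 higher and 342 to 515 lower. Cell population differed by -52.1 (unit as in the report) with 12 per class (adjusted p = 0.088, permutation test) and by -53.5 with 1 per strain number (exact permutation test, adjusted p = 0.056). Glycerol differed by 0.676 g per l (adjusted p = 0.056, permutation test) and 0.770 (exact permutation test, adjusted p = 0.056). *YLR444C*, not called, turned to -0.0475 with R70 as a covariate. Of the other uncalled genes, *HXT3* turned to 0.0841 with R70 as a covariate, 0.0320 with cell population and 0.0509 without 20a, 19c and 16d, *GPD1* to -0.0195 with 12 per class, -0.0276 with 15 and -0.0359 for R70 divided by R50, and *TPS1* to -0.00801 with R70 as a covariate and -0.0456 for R50 divided by Rmax (adjusted p of 0.79 to 0.98 by limma in all 9 cases). No called gene of those named turned under any of these alternatives. Of 127 named genes 66 lost the call with cell population as a covariate and 29 without 20a, 19c and 16d. With R70 as a covariate 61 lost it, and by Spearman's rho over 30 segregants with a size over 0.6 59 did. Not all of these losses are marked where the gene is described. *CTA1*, *DAK1*, *ECM4*, *JID1*, *MTF1*, *OM45*, *PYC1* and *TDH3* lost it when any of 5 to 16 single segregants was left out. The methods' t-test called 1595 without adjustment and 971 after Benjamini-Hochberg. The cause was not tested. No paired analysis was possible because replicate numbers only name the segregants in accession order. With strain number, of which 2 occur in both classes, as a random block (consensus correlation -0.16) 542 were higher and 458 lower. The classes are small, and their sister spores are not independent.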
